A study of Mus musculus with 12 samples.

Results

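The translation factors are the proteins that load a ribosome on an mRNA, find the start codon, move the ribosome along the coding sequence and release the finished chain. A list of 35 genes that encode such factors was chosen by gene symbol, and 31 of them are described here. The other 4 are not analysed here. Their transcripts were measured in mouse skeletal muscle on 12 arrays of the Affymetrix Mouse Gene ST type, 3 of the vehicle group, 4 of the KC group and 5 of the IL-8 group, among 23185 genes with 1 symbol each. IL-8 is a human chemokine that attracts neutrophils and has no direct counterpart in the mouse, and KC (Cxcl1) is a mouse chemokine that acts on the same receptor, CXCR2. Vehicle and IL-8 mice were 8-week-old C57BL/6J males without tumors that received 0.1% BSA alone or recombinant human IL-8 at 50 µg/kg in BSA by intraperitoneal injection on every other day over 6 days, and the tibialis anterior (TA), a fast hindlimb muscle, was taken on day 7. By their labels, KC mice received 50 µg/kg on the same schedule, and their tissue is named only as skeletal muscle. For these mice the sources used here do not give the age, the day of harvest or the solution that carried the KC.

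Initiation on a capped mRNA starts when eIF4F binds the cap. Its subunits are the cap-binding protein eIF4E, the scaffold eIF4G and the helicase eIF4A, and eIF3 joins this complex to the small ribosomal subunit, on which eIF2 has placed the initiator tRNA. In elongation, eEF1A brings the aminoacyl-tRNAs, the eEF1B subunits recharge it with GTP and eEF2 moves the ribosome by a codon. Muscle mass depends on the balance of protein synthesis and breakdown, and adult muscle fibers are known for using eEF1A2 in place of the eEF1A1 of most other tissues.

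The values are log2 expression values made by the authors with robust multi-array average (RMA), so a difference of 1 is a doubling. Muscle fiber transcripts were high in all arrays, with a mean over 10 marker genes of 11.5 to 12.0, and the 6 neutrophil markers were each below the median of all genes in every group. Liver transcripts were high in 3 arrays, vehicle 2, vehicle 4 and IL-8 1, where the mean of 14 liver markers was 5.65 to 6.14 against 2.72 to 3.16 in the other 9 arrays, and all 14 markers separated the arrays in this way. Since 2 of the 3 vehicle arrays and 1 of the 5 IL-8 arrays are of this kind, differences from vehicle within these arrays and within the others are given below for the main genes. Precision is limited by the number of arrays. A gene counted as called where limma gave an adjusted p (Benjamini-Hochberg, over all 23185 genes) of 0.1 or less together with a 1.5-fold or larger difference.

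The transcripts of the translation factors did not move as a block in IL-8-injected muscle. Eif3b, which encodes the scaffold subunit of eIF3, was the 1 gene of 31 called against vehicle, and it rose 1.63-fold. The genes of the other eIF3 subunits, of eIF4G3, of eEF1A2 and of eEF1B2 differed in both directions without passing the test. Over the 31 genes, the log2 difference between IL-8 and vehicle had a median of 0.02 and ran from −0.81 for Eef1b2 to 0.87 for Eif4g3, with 17 genes higher and 14 lower, and the median of all genes tested was −0.07. The call for 1 of 31 genes is a share of 3.23%, near the 2.55% of all genes called (592 genes, 406 up and 186 down), and with the adjusted p alone the share was again 3.23% against 3.14%. An unadjusted p under 0.05 was reached by 10 of 31 genes (32.3%), 6 of them higher and 4 lower, against 21.7% of all genes and 28.0% of the 11592 genes above the median level, where 29 of the 31 lie. The values come from whole muscle, in which fewer cells of a type and less RNA per cell cannot be told apart.

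**Figure D1:**
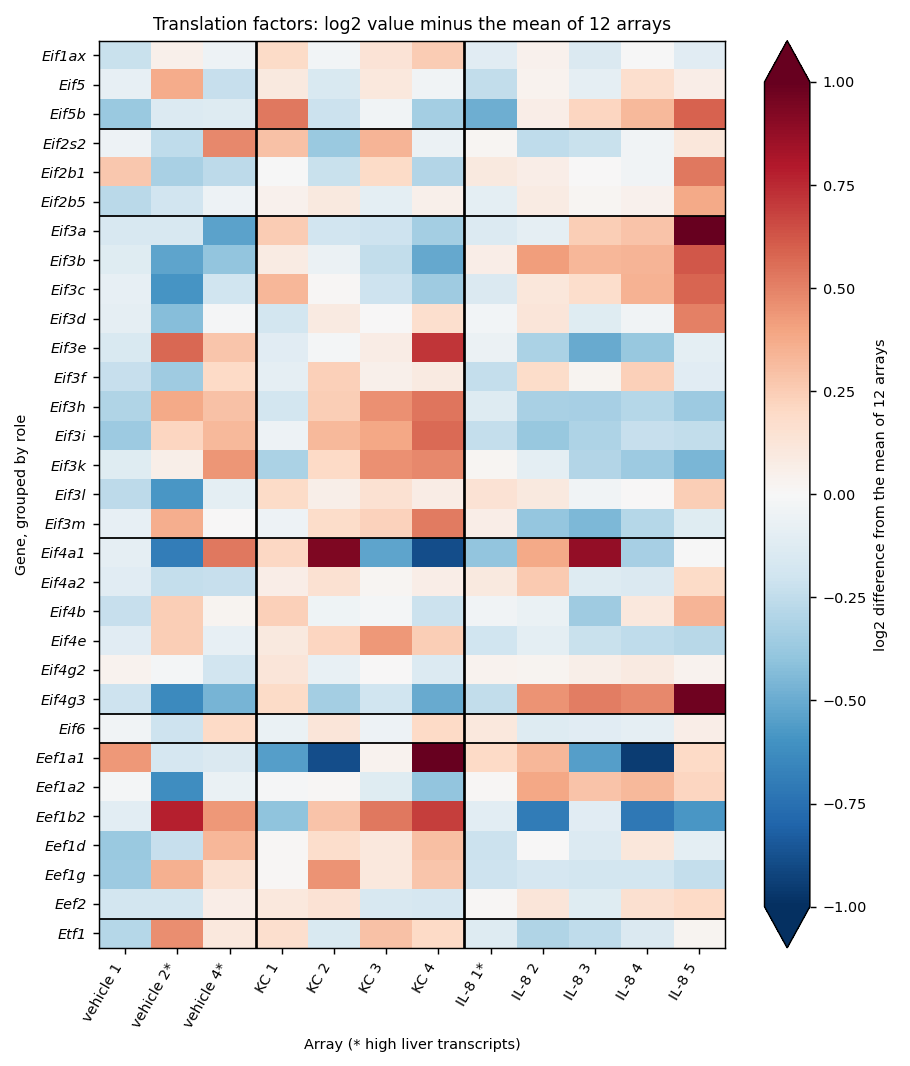
Log2 value of each of the 31 translation factor genes (rows, grouped by role) in each of the 12 arrays (columns), minus the gene's mean over the 12 arrays. Red is above the mean, blue below it, an asterisk marks the 3 arrays with high liver transcripts, and the eIF3 rows of the IL-8 columns are mostly red for Eif3a, Eif3b and Eif3c and mostly blue for Eif3e, Eif3h, Eif3i and Eif3m.

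mRNAs of the translation machinery often begin with a C and a run of pyrimidines, a feature by which mTOR, acting in part through the RNA-binding protein LARP1, controls their translation. The bases around the annotated starts are shown for Eif3f, the only gene with such a run at its start among the 23 for which a RefSeq start was found, and for 5 genes whose values are described below, since the array reads the amount of an mRNA and not its translation. Each window runs from 10 bases before the RefSeq start to 20 bases from the start on, on the gene's own strand in build GRCm38.p6, and capitals mark each C followed by at least 4 letters C or T.
Eif3f, chr7:108934405-108934434, plus strand: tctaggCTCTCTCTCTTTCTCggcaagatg
Eif3l, chr15:79075213-79075242, plus strand: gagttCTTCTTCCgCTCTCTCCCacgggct
Eif3b, chr5:140419295-140419324, plus strand: ggcgcgcggtgaCTTCTgggagtcggaagc
Eef1a1, chr9:78481705-78481734, minus strand: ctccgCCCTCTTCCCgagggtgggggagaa
Eef1a2, chr2:181156996-181157025, minus strand: cctggtctgcgttctcgctcactggttctc
Eef1b2, chr1:63176821-63176850, plus strand: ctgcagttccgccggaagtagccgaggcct
In Eif3f and Eef1a1 the marked run spans the annotated start, and the start base is a C in Eif3f and a T in Eef1a1. The windows of Eef1a2 and Eef1b2 hold no such run. The 23 genes had 25 starts. At 1 of these (4%) the start base was a C followed by at least 4 letters C or T. Of 32851 starts of all genes, with no chromosome left out, 2.51% had this. Somewhere in the 30-base window a run was found for 9 of 25 starts (36%), close to the 35.8% of all starts. Only the gene's own strand was searched, and a match in these letters is a description of the annotated start. Where the mRNAs begin in this muscle was not measured, so a start without a run does not show that the mRNA lacks one.

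eIF3 is the largest of the initiation factors, and 11 of its subunit genes were analysed. Against vehicle, 6 were higher and 5 lower in IL-8 muscle, and 7 had an unadjusted p under 0.05, 4 of them higher (Eif3a, Eif3b, Eif3c and Eif3l) and 3 lower (Eif3e, Eif3h and Eif3k). Eif3b was at 6.85, 6.45 and 6.58 in vehicle arrays 1, 2 and 4, at 7.06, 6.92, 6.73 and 6.46 in KC arrays 1 to 4, and at 7.04, 7.39, 7.30, 7.32 and 7.60 in IL-8 arrays 1 to 5. All 5 IL-8 arrays lay above all vehicle arrays, while KC 1 was above IL-8 1. The mean was 7.33 ± 0.20 (SD, n = 5) for IL-8 and 6.63 ± 0.20 (SD, n = 3) for vehicle, a log2 difference of 0.70 (SE 0.15, 95% CI 0.38 to 1.03, limma adjusted p = 0.0908). The exact two-sided permutation test over arrays gave p = 0.0179, the smallest that 56 splits allow. Within the arrays with high liver transcripts Eif3b differed by 0.53 (1 IL-8 against 2 vehicle arrays) and within the other arrays by 0.55 (4 against 1). With these arrays as a block the difference was 0.54 and the call was lost (adjusted p = 0.211), and leaving out any 1 of vehicle 2, vehicle 4, IL-8 2, IL-8 3, IL-8 4 or IL-8 5 also ended it, with adjusted p-values of 0.136 to 0.307.

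Eif3a encodes the largest subunit and Eif3c another core subunit. Eif3a was at 7.49, 7.50 and 7.12 in vehicle, at 7.91, 7.46, 7.44 and 7.31 in KC and at 7.51, 7.56, 7.90, 7.94 and 8.71 in IL-8 arrays, a difference of 0.55 from vehicle (SE 0.25, adjusted p = 0.225). The IL-8 arrays did not overlap with the vehicle arrays, but IL-8 1 exceeded vehicle 2 by little, and IL-8 5 stood well above the rest. Eif3c differed by 0.51 (SE 0.18, adjusted p = 0.15), with 4 of 5 IL-8 arrays above all vehicle arrays. Eif3l, a subunit with a PCI domain, was at 5.86, 5.54 and 6.02 in vehicle, at 6.31, 6.18, 6.28 and 6.19 in KC and at 6.27, 6.22, 6.09, 6.13 and 6.37 in IL-8 arrays. The arrays of both chemokine groups lay above every vehicle array and overlapped with each other. Its difference from vehicle was 0.41 (SE 0.13, adjusted p = 0.139) for IL-8 and 0.43 (SE 0.15, adjusted p = 0.994) for KC, and both comparisons use the same 3 vehicle arrays.

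Eif3i, a WD-repeat subunit that binds to eIF3B, had the opposite direction and fell in IL-8 relative to KC muscle. It was at 7.67, 8.25 and 8.36 in vehicle, at 7.99, 8.36, 8.42 and 8.60 in KC and at 7.79, 7.65, 7.73, 7.80 and 7.79 in IL-8 arrays. The IL-8 arrays were tightly grouped and below all KC arrays, but vehicle 1 was as low as they were. The mean was 7.75 ± 0.06 (SD, n = 5) for IL-8 and 8.34 ± 0.26 (SD, n = 4) for KC, a difference of −0.59 (SE 0.12, 95% CI −0.86 to −0.32, adjusted p = 0.0642), which at 1.503-fold sits on the fold limit. Leaving out IL-8 1, the array with high liver transcripts, gave −0.60. Leaving out KC 1 also kept the call, while leaving out any 1 of the other 7 arrays of this comparison ended it. Without KC 2 it ended by the fold limit alone (−0.582, adjusted p = 0.0813), and for the rest the adjusted p-values were 0.104 to 0.192. Against vehicle the difference was −0.34 (SE 0.16, adjusted p = 0.239), but −0.51 within the liver-transcript set and 0.075 within the other arrays.

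Eif3h, which encodes a subunit with an MPN domain, was at 7.80, 8.47 and 8.39 in vehicle, at 7.91, 8.34, 8.55 and 8.63 in KC and at 7.97, 7.77, 7.76, 7.81 and 7.73 in IL-8 arrays. As for Eif3i, vehicle 1 and KC 1 were close to the IL-8 arrays. It was lower by −0.55 against KC (SE 0.14, adjusted p = 0.0797), just short of the fold limit, and by −0.41 against vehicle (SE 0.16, adjusted p = 0.178). The latter was −0.46 within the liver-transcript set and −0.028 within the other arrays. Without vehicle 1, which leaves only liver-transcript arrays as controls, it was −0.62 and passed the test (adjusted p = 0.0118). For the remaining subunit genes that were lower, the differences from vehicle were −0.50 for Eif3e (adjusted p = 0.147), −0.36 for Eif3k (adjusted p = 0.222) and −0.33 for Eif3m (adjusted p = 0.245). Eif3d, which can bind the cap of some mRNAs, and Eif3f differed by 0.26 and 0.15 with intervals that span 0.

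To show how the subunit genes varied together, Eif3a, Eif3b, Eif3c and Eif3l were averaged in each array and set against the average of Eif3e, Eif3h, Eif3i, Eif3k and Eif3m. These sets were formed from the values themselves, so what follows is a description with no test. The first average minus the second was −0.31, −1.13 and −0.93 in vehicle arrays 1, 2 and 4, 0.0059, −0.58, −0.80 and −1.20 in KC arrays 1 to 4, and −0.30, 0.083, 0.20, 0.20 and 0.53 in IL-8 arrays 1 to 5. IL-8 arrays 2 to 5 had the highest values, but vehicle 1 was level with IL-8 1 and KC 1 lay above both. Of the vehicle arrays, the 2 with high liver transcripts had the lowest values, and KC 4, where liver transcripts were low, was lower still. The part of the liver transcripts in this pattern was not tested.

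**Figure D2:**
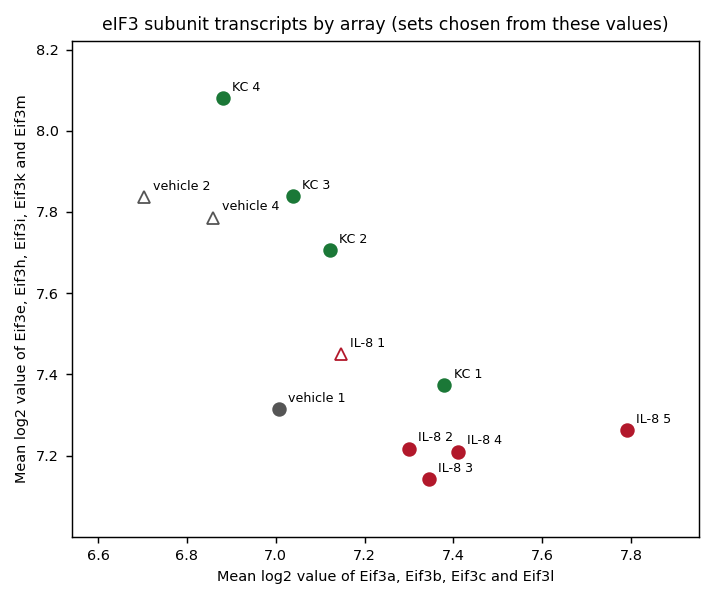
Mean log2 value of Eif3a, Eif3b, Eif3c and Eif3l (x axis) against the mean log2 value of Eif3e, Eif3h, Eif3i, Eif3k and Eif3m (y axis) in each of the 12 arrays, with gray for vehicle, green for KC, red for IL-8 and open triangles for the 3 arrays with high liver transcripts. IL-8 arrays 2 to 5 lie at the lower right, vehicle 2, vehicle 4 and KC 4 at the upper left, and vehicle 1, KC 1 and IL-8 1 between them.

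Among the genes of eIF4F, the mean of the scaffold gene Eif4g3 was higher in IL-8 muscle and that of the cap-binding gene Eif4e lower. Neither was called in any comparison. Eif4g3, also known as eIF4GII, was at 7.19, 6.76 and 6.94 in vehicle, at 7.59, 7.06, 7.20 and 6.90 in KC and at 7.15, 7.85, 7.91, 7.88 and 8.37 in IL-8 arrays. IL-8 arrays 2 to 5 were above every other array, and IL-8 1, with high liver transcripts, fell among the vehicle and KC arrays. Its mean of 7.83 ± 0.44 (SD, n = 5) exceeded vehicle by 0.87 (SE 0.23, 95% CI 0.36 to 1.38, 1.83-fold), the widest positive difference of the 31 genes, at an adjusted p of 0.102 that narrowly missed the limit. Without IL-8 1 the difference was 1.04 (adjusted p = 0.0458) and without vehicle 1 it was 0.98 (adjusted p = 0.0333), both past the test. Leaving out vehicle 1 leaves only liver-transcript arrays as controls. Leaving out any 1 of vehicle 2, vehicle 4 or IL-8 2 to IL-8 5 gave no call for Eif4g3. With the liver-transcript arrays as a block the difference was 0.58 (adjusted p = 0.291). It was 0.30 within the liver-transcript set and 0.81 within the other arrays, and 0.64 against KC (adjusted p = 0.134). Eif4g2, a relative that lacks the part that binds eIF4E and serves cap-independent initiation, varied little. It was at 10.02, 9.97 and 9.80 in vehicle, at 10.11, 9.91, 9.99 and 9.85 in KC and at 10.02, 10.02, 10.05, 10.08 and 10.02 in IL-8 arrays, a difference of 0.11 from vehicle (95% CI −0.12 to 0.34). The groups of Eif4g2 overlapped, and its interval leaves out differences as large as that measured for Eif4g3.

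Eif4e was at 3.92, 4.28 and 3.96 in vehicle, at 4.14, 4.25, 4.47 and 4.28 in KC and at 3.84, 3.94, 3.81, 3.78 and 3.76 in IL-8 arrays. Every IL-8 array lay below every KC array, and 4 of the 5 lay below every vehicle array. The difference was −0.46 against KC (SE 0.10, 95% CI −0.67 to −0.24, adjusted p = 0.0671), which is 1.37-fold and under the fold limit. It was −0.23 against vehicle (SE 0.12, adjusted p = 0.296), and −0.28 within the liver-transcript set and −0.097 within the other arrays.

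The helicase genes Eif4a1 and Eif4a2 encode closely similar proteins. Eif4a2 was at 7.23, 7.10 and 7.11 in vehicle, at 7.41, 7.49, 7.36 and 7.41 in KC and at 7.43, 7.60, 7.21, 7.19 and 7.53 in IL-8 arrays. The KC arrays were all above the vehicle arrays, by a mean of 0.27 (SE 0.13, adjusted p = 0.994), while the IL-8 arrays overlapped with vehicle (0.25, SE 0.13, adjusted p = 0.289). Eif4a1 was at 1.51, 0.91 and 2.13 in vehicle, at 1.81, 2.53, 1.07 and 0.71 in KC and at 1.20, 1.98, 2.48, 1.27 and 1.60 in IL-8 arrays, so that all 3 groups spanned nearly the same range. Eif4a1 and Eef1a1 were the only 2 of the 31 genes at or below the median level of all genes. Both have many processed copies in the mouse genome, and the sources used here do not say which probes their values come from. Eif4b, whose protein stimulates eIF4A, differed by −0.015 from vehicle in the IL-8 arrays (95% CI −0.39 to 0.36).

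The elongation genes also split. Eef1a2 was at 10.18, 9.58 and 10.14 in vehicle, at 10.19, 10.21, 10.08 and 9.80 in KC and at 10.21, 10.59, 10.49, 10.52 and 10.41 in IL-8 arrays. All IL-8 arrays were above all others, although the lowest of them, IL-8 1 at 10.211, barely exceeded KC 2 at 10.209. The mean of 10.44 ± 0.14 (SD, n = 5) was 0.48 above vehicle (SE 0.16, 95% CI 0.13 to 0.83, adjusted p = 0.139) and 0.37 above KC (SE 0.12, adjusted p = 0.119). Neither passed the test, and within the liver-transcript arrays and the others the difference from vehicle was 0.35 and 0.32. Eef1a1 was at 2.96, 2.37 and 2.39 in vehicle, at 1.98, 1.64, 2.57 and 4.58 in KC and at 2.73, 2.87, 1.98, 1.58 and 2.73 in IL-8 arrays. KC 4 stood apart, and the difference of −0.19 between IL-8 and vehicle had a wide interval of −0.84 to 0.46. With an interval of this width, a measured difference the size of that in Eef1a2 would not have been clear of 0. A fall of that size lies inside the interval and a rise of that size just outside it.

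Eef1b2, which encodes a nucleotide exchange subunit of eEF1B, was the gene lowest in IL-8 relative to vehicle. It was at 9.003, 9.89 and 9.55 in vehicle, at 8.71, 9.40, 9.64 and 9.81 in KC and at 9.01, 8.42, 8.9995, 8.40 and 8.53 in IL-8 arrays. IL-8 1 and IL-8 3 were level with vehicle 1, and KC 1 was among the IL-8 arrays. The difference was −0.81 from vehicle (SE 0.22, 95% CI −1.31 to −0.32, adjusted p = 0.106) and −0.72 from KC (SE 0.22, adjusted p = 0.113). The difference from vehicle passed the test without vehicle 1 (−1.05, adjusted p = 0.0129), which leaves only liver-transcript controls, and without IL-8 1 (−0.90, adjusted p = 0.0748). Leaving out any 1 of vehicle 2, vehicle 4 or IL-8 2 to IL-8 5 gave no call. With the liver-transcript arrays as a block it was −0.55 (adjusted p = 0.324), and it was −0.71 within the liver-transcript set and −0.42 within the other arrays. Eef1g, another eEF1B subunit gene, was at 6.38, 7.10 and 6.90 in vehicle, at 6.75, 7.19, 6.85 and 7.02 in KC and at 6.54, 6.58, 6.56, 6.56 and 6.503 in IL-8 arrays. The IL-8 arrays lay within a narrow range below all KC arrays and inside the wide range of the vehicle arrays. The difference was −0.41 against KC (SE 0.11, adjusted p = 0.0812, under the fold limit) and −0.24 against vehicle (adjusted p = 0.365). The sign of the difference from vehicle turned, from −0.46 within the liver-transcript set to 0.17 within the other arrays. The third analysed subunit gene, Eef1d, differed by 0.021 from vehicle (95% CI −0.34 to 0.39), and Eef2 by 0.18 (95% CI −0.094 to 0.45).

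**Figure D3:**
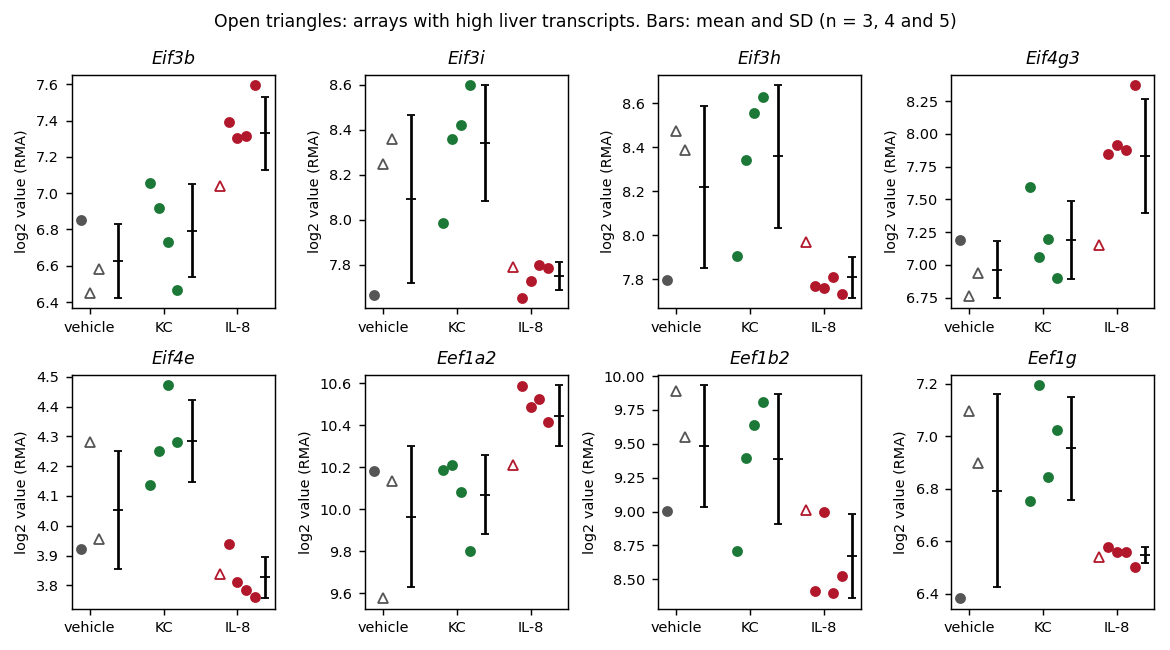
Log2 RMA value in each array (y axis, scaled to each gene) of 8 translation factor genes in vehicle (gray), KC (green) and IL-8 (red) muscle, with open triangles for the arrays with high liver transcripts and bars for mean and SD (n = 3, 4 and 5). IL-8 arrays are above all vehicle arrays for Eif3b and Eef1a2, and below all KC arrays for Eif3i, Eif4e and Eef1g.

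The genes of start site selection and of eIF2 showed smaller differences. Eif1ax, whose protein eIF1A helps the small subunit scan, was at 7.88, 8.15 and 8.05 in vehicle, at 8.30, 8.08, 8.24 and 8.36 in KC and at 7.99, 8.15, 7.97, 8.10 and 7.996 in IL-8 arrays. Of the KC arrays 3 of 4 were above all vehicle arrays (0.22, SE 0.14, adjusted p = 0.994), and the IL-8 arrays lay within the vehicle range (0.012, SE 0.11, adjusted p = 0.958). Eif5b, which joins the ribosomal subunits, differed by 0.35 between IL-8 and vehicle (adjusted p = 0.346), with a sign that changed from −0.36 within the liver-transcript arrays to 0.66 within the others. The eIF2 subunit gene Eif2s2 and the genes of its exchange factor eIF2B, Eif2b1 and Eif2b5, differed by −0.14, 0.24 and 0.25, and the release factor gene Etf1 by −0.26, none with an adjusted p under 0.284. Over the 31 genes, 18 had the same direction within the liver-transcript set and within the other arrays, and 13 did not.

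KC against vehicle gave no call among the 31 genes and none among all genes tested (0% by the test and 0% by the adjusted p alone, the smallest adjusted p being 0.994). An unadjusted p under 0.05 was reached by 1 gene, Eif3l (3.23%), against 3.98% of all genes. The median difference was 0.14 against −0.0043 for all genes, with 26 genes higher and 5 lower, and all 31 lay between −0.094 and 0.43. Intervals were wide: for Eif3b the difference was 0.17 (95% CI −0.23 to 0.57) and for Eif4g3 0.22 (95% CI −0.20 to 0.65), so the differences measured with IL-8 lie outside these intervals, while smaller ones do not. For Eif3l and Eif4a2, 2 of 31 genes (6.45%), the KC and vehicle arrays did not overlap, against 4.94% of all genes.

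IL-8 against KC, a comparison that does not use the vehicle arrays, addressed whether the 2 chemokine groups differed. By the test 1 of 31 genes was called, Eif3i (3.23%), against 3.02% of all genes (700 genes, 374 up and 326 down). With the adjusted p alone the count was 5 of 31 (16.1%), Eif3b higher and Eif3h, Eif3i, Eif4e and Eef1g lower, against 4.95% of all genes and 8.50% of those above the median level. An unadjusted p under 0.05 was reached by 12 (38.7%), 3 higher and 9 lower, against 19.8% of all genes and 28.1% of those above the median level. Eif3b was 0.54 higher in IL-8 than in KC muscle (SE 0.14, 95% CI 0.22 to 0.85, adjusted p = 0.0851), which at 1.45-fold was under the fold limit. Arrays of the groups did not overlap for 4 genes (12.9%) in this comparison, Eef1a2 above and Eif3i, Eif4e and Eef1g below, against 6.68% of all genes. Against vehicle this held for 4 genes (12.9%), Eif3a, Eif3b, Eif3l and Eef1a2, all higher with IL-8, against 11.0% of all genes. Since IL-8 arrays enter both comparisons, these counts are not independent.

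**Figure D4:**
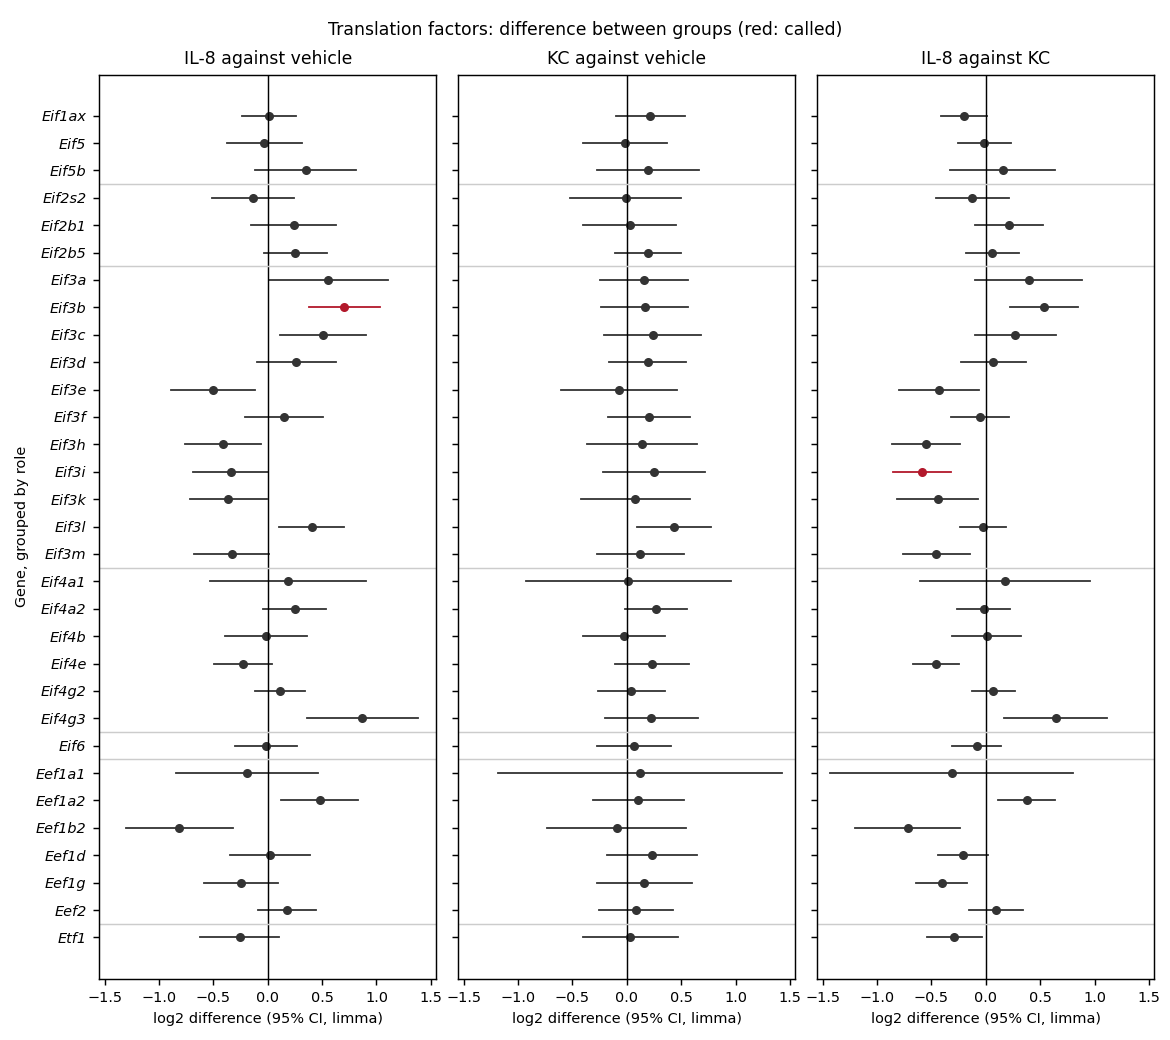
Log2 difference between groups (x axis) with its 95% CI from limma for each of the 31 translation factor genes (rows, grouped by role), for IL-8 against vehicle, KC against vehicle and IL-8 against KC. Red marks the 2 called differences, Eif3b at 0.70 and Eif3i at −0.59, and the KC differences from vehicle lie between −0.094 and 0.43.

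Genes that act on these factors were also read from the same fit, as lists by function, beside the 2.55% of all genes, and 4.18% of those above the median level, that were called for IL-8 against vehicle. Of 22 measured regulators of initiation and elongation, 3 rose in IL-8 against vehicle and 0 fell, with a median difference of 0.39 over the list. They were Gcn1, the activator of the eIF2 kinase GCN2 (1.07, SE 0.18, adjusted p = 0.0908), Larp1, which binds mRNAs with a pyrimidine run at the start (1.11, SE 0.23, adjusted p = 0.0908), and Eif4ebp2, a repressor that binds eIF4E (0.76, SE 0.18, adjusted p = 0.0914). Against KC these genes were higher by 0.71, 0.98 and 0.68, and all passed the test there, among 4 regulators that rose and 0 that fell. In that comparison 3.02% of all genes and 5.52% of those above the median level were called. Of 27 measured further cytosolic factors 1 rose, Dhx29, a helicase for structured leaders (0.74, SE 0.13, adjusted p = 0.0908), and of 21 cytosolic aminoacyl-tRNA synthetase genes and their partners 1 rose, Aars, which charges alanine tRNA (0.66, SE 0.15, adjusted p = 0.0914). Of 11 mitochondrial translation factors 0 passed, and the smallest p was that of the elongation factor gene Gfm2 (0.55, adjusted p = 0.144). With KC against vehicle 0 genes of the 4 lists passed. With the liver-transcript arrays as a block, 0 of all genes were called for IL-8 against vehicle (smallest adjusted p = 0.113, with 2701 genes at an unadjusted p under 0.05), so the calls for these genes against vehicle were lost there.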

How the data were processed

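The 12 arrays (3 vehicle, 4 KC, 5 IL-8) were grouped by the sample labels. The authors deposited log2 values from RMA, and the submitters' processing notes name affy 1.36.1 and R 2.15.1. RMA applies quantile normalization, which reduces differences in overall brightness, but some remained in the values. The median over all genes was 3.48 in vehicle 2, 3.47 in vehicle 4 and 3.36 in vehicle 1. It was 3.32 to 3.35 in IL-8 arrays 2 to 5. Quantile normalization of these values left 2 calls in place of 592 for IL-8 against vehicle, and 657 in place of 700 for IL-8 against KC. Values were named through the platform annotation, and 2021 unnamed entries were not tested. Levels of different genes are not comparable, since probes differ. By the study's methods the vehicle and IL-8 arrays are of separate mice. For KC no source used here says so, and p-values measure the spread between these arrays.

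limma 3.58.1 (R 4.3.3, lmFit and eBayes) compared each chemokine group with vehicle and the chemokine groups with each other, in separate fits on the arrays concerned, and was tested on simulated data. The study's marker selection module was not run. The genes and lists were chosen with earlier results of these data known. Named genes are those called, the 4 with the smallest p in each comparison, paralog sets and, of each list, up to 3 called genes or the 1 with the smallest p. Others were named after their values were seen. Sequences come from RefSeq. Alternatives were one fit over all 12 arrays, testing unnamed entries too, leaving out dim genes, quantile normalization, array median centring, an intensity trend, array weights, a replicate block, the methods' t-test (unequal variances), Storey q-values, other thresholds, the liver-transcript arrays as a block or left out, and leaving out each array.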

Additional observations from a re-analysis of the deposited data

Results flagged for a closer look

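Of 62 gene and group combinations with 4 or 5 arrays, 1 held an array far from the others by Dixon's criterion, and chance alone flags about 1 in 20. Eif2b1, which encodes a regulatory subunit of the exchange factor eIF2B, was at 6.98 in IL-8 5 and at 6.42 to 6.55 in the other IL-8 arrays, a gap of 0.77 of the group's range.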

How the results depend on the processing

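No called result changed direction under any alternative run. Of the recomputed values of single translation factor genes, 1920 kept a call or stayed within the spread (SD) of the second-named group's arrays. A call was gained by 45 and lost by 24, and 51 of those with no call moved by more than that spread. The number of calls, in contrast, depended on the setting. For IL-8 against vehicle, all genes and translation factors called were 592 and 1 in the reported fit, 117 and 0 with all 12 arrays in one fit, 944 and 3 with dim genes left out, 2 and 0 with quantile normalization, 2083 and 4 with array weights, 1531 and 3 with Storey q-values, 2 and 0 at an adjusted p of at most 0.05, and 0 and 0 by the methods' t-test (2289 at an unadjusted p under 0.05) and with the liver-transcript arrays as a block. Array median centring called 2 translation factors. Without the liver-transcript arrays, which leaves 1 vehicle array, no test was run, and the median difference of the translation factors was 0.17. Leaving out each array gave 0 to 3338 genes and 0 to 7 translation factors, the most without vehicle 1. For IL-8 against KC, the counts were 700 and 1 as reported, 1 and 0 with all 12 arrays, 1193 and 4 with array weights, 1 and 0 at 0.05, 1147 and 5 without a fold limit, 1130 and 5 with the liver-transcript array as a block or left out (the same fit), and 0 and 0 by the t-test (3249 unadjusted). Translation factors called were 3 with Storey q-values, 3 with dim genes left out and 0 with centring. Leaving out each array gave 0 to 1741 genes and 0 to 6 translation factors, the most without KC 1. For KC against vehicle, leaving out each array gave 0 to 92 genes, the 92 without vehicle 1, and 0 translation factors.

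Replicate numbers did not pair the arrays (correlations of same-numbered deviations from −0.36 to 0.36). A replicate block gave 0 calls for all genes and 0 for the translation factors in each comparison, with 2484 genes at an unadjusted p under 0.05 for IL-8 against vehicle and 3688 for IL-8 against KC. With it Eif3b differed by 0.62 (adjusted p = 0.463) and Eif3i by −0.60 (adjusted p = 0.226).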

Other observations

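Across the 31 genes, the difference between IL-8 and vehicle and the length of the gene on the genome had a Spearman rho of 0.16, and across all 23185 genes, which are not independent, it was 0.27. Eif4g3, which had the widest positive difference, is the longest of the 31 genes at 215308 bases. The next longest, Eif3h at 78899 bases, was lower in IL-8 muscle, with a difference of −0.41.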
